A study of Mus musculus with 19 samples.

Results

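The 10 genes described here import amino acids or make serine, glycine, asparagine and folate-bound carbon units. They are the transporter genes Slc7a5, Slc3a2, Slc7a11, Slc1a5 and Slc7a1 and the enzyme genes Asns, Psat1, Phgdh, Shmt2 and Mthfd2. They were taken by name, as genes linked to the transcription factor ATF4 and the growth kinase complex mTORC1, from a table of 24689 genes. All 10 were among the 22745 genes that reached 0.1 TPM in at least 3 mice and were tested.

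RNAseq of polyadenylated RNA was analysed from the tongue epithelia of 19 mice in 4 groups, named N (normal, 5 mice), E (5 mice), Y (3 mice) and EY (6 mice). The E, Y and EY mice carried Krt14-CreERT and LSL-rtTA together with tetON_E6-E7, with tetON_YAP1S127A, or with both. E6-E7 are papillomavirus oncogenes that disable tumor suppressors, and the altered YAP1 escapes inhibition by the Hippo pathway. Of the N mice, 3 carried Krt14-CreERT and LSL-rtTA without an effector transgene. N mouse 4 had LSL-rtTA without Cre, and N mouse 5 had Krt14-CreERT and both effector transgenes without rtTA. By the methods of the study, the lines also held an H2B-GFP reporter, and littermates of 8 to 16 weeks were given 3 doses of tamoxifen in the tongue and doxycycline in the chow. Epithelia were taken on day 15 and separated from the tissue beneath by enzymes. Cre was driven by the Krt14 promoter, which is active in basal cells, whereas the RNA came from all layers of the epithelium.

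The values were deposited as TPM, which sum to 1000000 in each mouse, and whole reads could be recovered from the steps between them. The mice had from 8269674 to 11007304 recovered reads, and the group medians were 9448942 for EY, 9637779 for N, 8848776 for E and 8679053 for Y mice. The members had from 66 reads, for Mthfd2 in an N mouse, to 9876 reads, for Psat1 in an EY mouse. The deposited TPM had been divided by the whole span of a gene, introns included. The divisor implied by the reads lay within 1% of the annotated span for 18303 of 18531 genes (98.8%), and within 1% of the exon length for 121 (0.653%). A difference of 1 gene between mice is touched by this only through the pseudocount, the filter and the sum of the mouse, but levels of different genes cannot be compared in these units. In Slc7a11, which spans 551089 bases with 13922 in exons, 0.1 TPM stood for 96.7 reads in N mouse 1, against 0.934 reads in Shmt2. For levels between genes, TPM were therefore computed anew from the recovered reads and exon lengths, and are called TPM per exon length below.

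Cells take up essential amino acids through exchangers and carriers of the solute carrier families, and make serine from a glycolytic intermediate. Serine then gives its side-chain carbon to folate, mostly in mitochondria, which yields glycine and units for purine and thymidylate synthesis. ATF4 is translated when amino acids run short or mTORC1 is active, and is known to switch on most of the genes described here; dividing basal keratinocytes are the main growing cells of a stratified mucosa.

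Markers were checked first. The keratins of the labelled tissue were abundant: the 10 epithelial markers summed to between 56653 and 164020 TPM per exon length in every mouse. The highest over all mice was Krt13, a keratin of the suprabasal mucosa, with a mean of 75346 in N and 21614 in EY mice. Krt14, a basal keratin and the source of the Cre promoter, went the other way, from a mean of 6867 in N to 8715 in E, 17089.6 in Y and 18449 in EY mice, and was called in EY against N (log2 fold change 1.43, SE 0.28, adjusted p = 0.000402). The other basal markers were mixed. Krt5 was higher in every EY than in every N mouse but under the limit on the fold change (0.98, adjusted p = 0.00067), the keratin Krt15 fell in EY against N by a log2 fold change of 1.27, and the basal factor Trp63 was at 0.02 (adjusted p = 0.932). The part of these differences in those of the members was not tested. The 10 leukocyte markers summed to 493, 245, 119, 82.2 and 115 in the N mice, to 295, 266, 249, 87.9 and 321 in the E mice, to 1184, 1358 and 794 in the Y mice and to between 434 and 1253 (median 937) in the EY mice. The highest over all mice was S100a9, a calgranulin that neutrophils and stressed keratinocytes both make, with means of 17.4 in N and 384 in EY mice, whereas in N and E mice it was Cd74 of antigen-presenting cells (133 in N, 139 in E). S100a8, its partner, had means of 11.2 in N, 334 in Y and 256 in EY mice, and this pair made up most of the sums in Y mice. The median log2 fold change of the leukocyte list was -0.02 in Y against N and 0.91 in EY against N. Ly6g, which marks neutrophils, was above 0 in 5 of 6 EY mice and in no mouse of the other groups (mean 1.77), and it was called higher in EY against N. Cd3e, which marks T cells, was at 0 in at least 1 mouse. The 10 muscle markers summed to 102, 401, 29.0, 68.7 and 83.6 in the N mice, 72.0, 40.6, 56.5, 33.8 and 238 in the E mice, 28.8, 279 and 53.8 in the Y mice and from 76.6 to 2029 (median 284) in the EY mice, led by Acta1. Fibroblast markers had median sums of 116 in EY and 83.5 in Y mice, against 167 in E and 206 in N mice. In EY against N the only one called was Dcn, which fell by 2.36, while the median log2 fold change of the list was 0.45, and 2 EY mice (272 and 251) were above every E mouse. Endothelial markers stayed at or below 15.3 in every mouse. The part of leukocytes and muscle in the results that follow was tested only as a covariate in the model, with the values given below, and that of fibroblasts and endothelium was not tested. In such bulk samples, fewer cells of a type and less RNA per cell cannot be told apart.

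In EY against N epithelia, 7 of the 10 members were called higher and none lower, where 12.6% of all genes tested were called higher and 5.71% lower. To be called by limma on log2(TPM + 0.1), a gene had to differ by a log2 fold change of more than 1 in either direction, with a p below 0.01 after Benjamini-Hochberg adjustment. In 8 of the 10, all but Slc7a11 and Slc7a1, every EY mouse was above every N mouse in the deposited TPM (20.9% of all genes). All 5 enzymes rose, as did the transporter genes Slc3a2 and Slc1a5. The median log2 fold change of the members was 1.37, beside 0.33 for all genes tested. After median-of-ratios scaling, which brought the median of all genes to 0.011, the median of the members was 1.00. The 5 enzymes were then called (6.77% of all genes were called higher and 8.67% lower), and no transporter was. Scaling also turned the split of calls over all genes from 2858 higher and 1299 lower to 1540 higher and 1972 lower. The values of a mouse were divided by factors of 0.803 to 1.02 in N and of 1.11 to 1.21 in EY mice. Throughout, overlap of TPM between groups was judged before scaling and not after it, where narrow gaps may close.

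**Figure D1:**
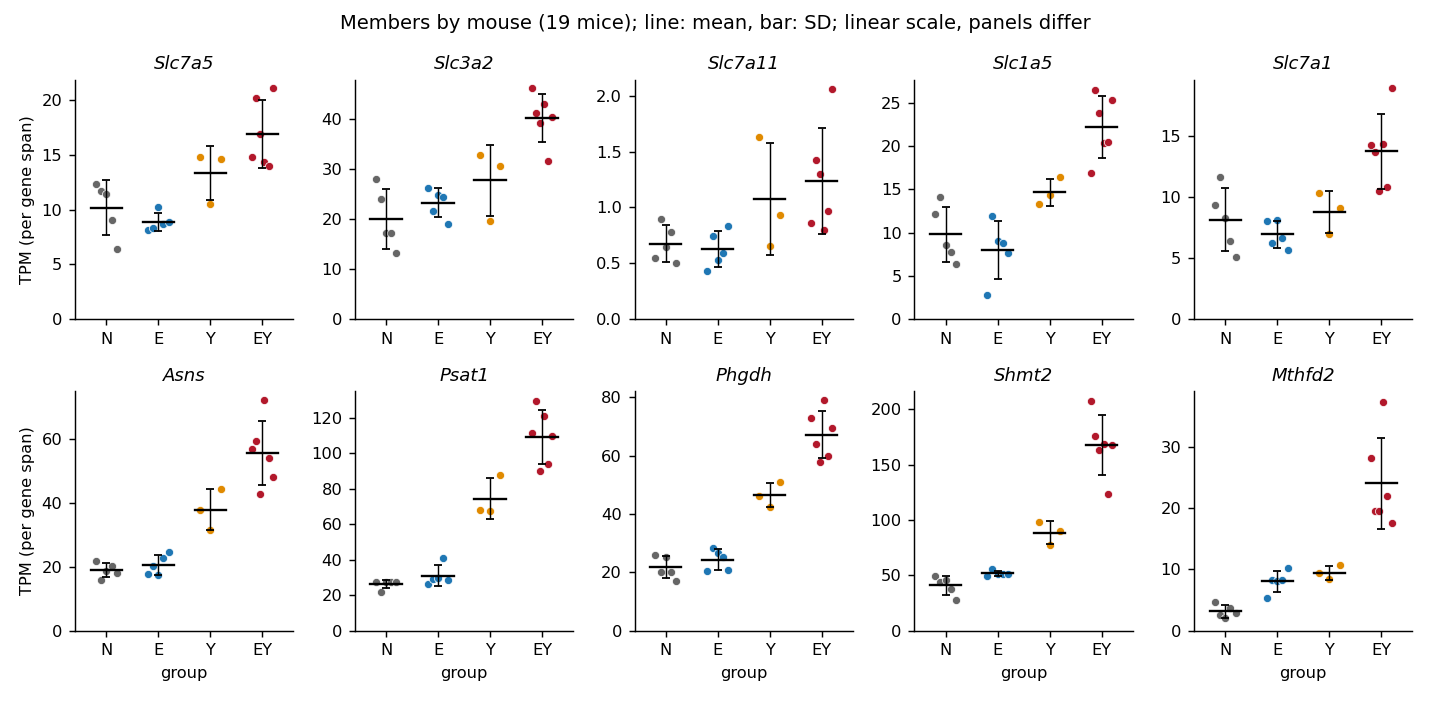
TPM of each member in each of 19 mice, on a linear axis of its own in each panel; points are mice, the line is the group mean and the bar is the SD (6 EY mice, 3 Y mice and 5 each of N and E). In Psat1, the EY mice lie between 90.1 and 129 TPM and the N mice between 21.9 and 27.7 TPM, whereas in Slc7a11 both groups overlap.

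Slc7a5 and Slc3a2 encode the light and heavy chains of LAT1, the exchanger of leucine and other large neutral amino acids. Slc7a5 stood at 12.4, 11.7, 11.4, 9.06 and 6.37 TPM in the N mice, at 8.17, 8.35, 10.2, 8.69 and 8.88 TPM in the E mice, at 14.9, 10.5 and 14.7 TPM in the Y mice and between 14.04 and 21.1 TPM (median 15.9) in the EY mice. Every EY mouse lay above every N mouse, and the E and Y mice overlapped with the N mice. The log2 fold change of Slc7a5 in EY against N was 0.74 (SE 0.17, adjusted p = 0.0014), under the limit on the fold change.

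Slc3a2 is shared by several transporters, since its heavy chain carries light chains such as those of LAT1 and xCT to the membrane. It stood at 28.1, 24.0, 17.3, 17.3 and 13.2 TPM in the N mice, at 26.2, 21.6, 24.9, 24.5 and 19.01 TPM in the E mice, at 32.8, 19.6 and 30.7 TPM in the Y mice and between 31.7 and 46.2 TPM (median 40.7) in the EY mice. Every EY mouse was above every N mouse, and all E mice and Y mouse 2 lay within the range of the N mice. Slc3a2 rose in EY against N with a log2 fold change of 1.05 (SE 0.18, adjusted p = 0.000113). This call was close to the limit on the fold change: it was 0.67 after scaling, 0.88 with voom on the recovered reads, 0.91 without N mouse 5 and 0.82 with the 3 N mice of the control genotype.

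Slc7a11 encodes xCT, which exchanges cystine for glutamate and feeds glutathione synthesis. Its values were 0.550, 0.899, 0.648, 0.783 and 0.501 TPM in the N mice, 0.427, 0.744, 0.534, 0.593 and 0.831 TPM in the E mice, 1.63, 0.658 and 0.931 TPM in the Y mice and between 0.793 and 2.06 TPM (median 1.13) in the EY mice. Y mouse 1 and EY mouse 6 were the highest, and the groups overlapped. The log2 fold change in EY against N was 0.74 (SE 0.27, adjusted p = 0.0384), and Slc7a11 was not called in any of the 7 comparisons.

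Slc1a5 encodes ASCT2, an exchanger of glutamine, serine and other small neutral amino acids. It stood at 12.2, 14.1, 8.54, 7.76 and 6.42 TPM in the N mice, at 2.75, 11.9, 9.07, 8.80 and 7.59 TPM in the E mice, at 13.3, 14.3 and 16.4 TPM in the Y mice and between 16.9 and 26.5 TPM (median 22.1) in the EY mice. All EY mice were above all other mice, and E mouse 1 was far below the other E mice. Slc1a5 rose in EY against N by a log2 fold change of 1.22 (SE 0.29, adjusted p = 0.0024) and in EY against E by 1.58 (SE 0.29, adjusted p = 0.000319). The call against N was lost after scaling (0.84, adjusted p = 0.0168), with the 3 N mice of the control genotype (0.94, adjusted p = 0.0375) and with the muscle markers as a covariate (1.16, adjusted p = 0.0109).

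Slc7a1 encodes CAT1, the main carrier of arginine and lysine. Its values were 9.34, 11.6, 8.27, 6.38 and 5.04 TPM in the N mice, 8.04, 6.21, 8.06, 6.64 and 5.65 TPM in the E mice, 10.3, 6.93 and 9.05 TPM in the Y mice and between 10.4 and 18.9 TPM (median 13.9) in the EY mice. The highest N mouse lay within the range of the EY mice. The log2 fold change in EY against N was 0.78 (SE 0.20, adjusted p = 0.00425), under the limit on the fold change, and 0.40 after scaling (adjusted p = 0.0820). N mouse 5 was the lowest of the N mice in each of the 5 transporter genes. In none of these 5 genes did groups next to each other in the order of their means differ by the test.

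Asns encodes asparagine synthetase, which amidates aspartate with glutamine as the donor. It stood at 21.9, 15.9, 18.7, 20.2 and 18.1 TPM in the N mice, at 17.7, 20.1, 17.5, 22.8 and 24.7 TPM in the E mice, at 37.7, 31.3 and 44.1 TPM in the Y mice and between 42.8 and 71.9 TPM (median 55.3) in the EY mice. The Y mice were all above the N and E mice, and the highest Y mouse reached into the EY range. Asns rose in EY against N by a log2 fold change of 1.53 (SE 0.13, adjusted p = 9.44e-08). In Y against N its log2 fold change was 0.98 (SE 0.16, adjusted p = 0.000523), just under the limit. It was called there without N mouse 1 (1.04), without N mouse 4 (1.01) or without Y mouse 2 (1.11).

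As ATF4 links the members, their promoters were searched for the letters TGATGNAA of the CARE element, which ATF4 is known to bind with C/EBP partners. Of the 10 members, 8 matched an entry in RefSeq's promoters (GRCm38.p6, 250 bases before to 50 after a start; both strands), and Slc7a5 and Slc1a5 had none. The motif was in the promoters of 2 of these 8, Slc7a11 and Asns, and in 1304 of 32851 promoters of the same length (3.97%). The 30 bases that hold the matches are shown 5′ to 3′ on the strand of the gene, with the matches in capitals, since both genes are textbook targets of ATF4.
Slc7a11: ggcTGATGCAAacctggagaatTTGCATCA
Asns: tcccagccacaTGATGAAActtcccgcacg
The Slc7a11 stretch is chr3:50443653-50443682 on the minus strand, upstream of the start in the promoter table and within the gene's longer RefSeq record, with matches from base -66 on the strand of the gene and from base -47 on the other. The Asns stretch is chr6:7693214-7693243 on the minus strand, upstream of the RefSeq start and inside the first exon of a GENCODE M21 transcript, with the match from base -23. By the values above, Asns was called in EY epithelia and Slc7a11 was not. The TEAD core GGAATG, bound by the partners of YAP, was in 0 of the 8 promoters and in 14.7% of all promoters. With 8 promoters, a count of 0 cannot be set apart from that share. The core was in 5 of 5 matched promoters of the YAP target list. It was in 4 of 16 of the other serine, glycine and folate genes and in 6 of 25 of the other transporters. The study found many YAP peaks of cultured cells far from starts, outside such a window. A match describes letters in a window, and binding was not measured here.

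Phgdh encodes the dehydrogenase that commits a glycolytic intermediate to serine synthesis. It stood at 26.1, 20.3, 25.4, 19.99 and 17.1 TPM in the N mice, at 20.5, 28.5, 26.7, 25.2 and 20.8 TPM in the E mice, at 46.1, 42.4 and 50.9 TPM in the Y mice and between 57.8 and 78.9 TPM (median 66.8) in the EY mice. The Y mice lay above all N and E mice and below all EY mice. Phgdh rose in EY against N by a log2 fold change of 1.63 (SE 0.12, adjusted p = 1.66e-08) and in Y against N by 1.10 (SE 0.15, adjusted p = 9.33e-05).

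Psat1 encodes the aminotransferase that follows Phgdh. Its values were 27.7, 21.9, 27.3, 27.5 and 27.4 TPM in the N mice, 26.6, 29.1, 29.97, 41.2 and 28.5 TPM in the E mice, 68.0, 67.4 and 87.9 TPM in the Y mice and between 90.1 and 129 TPM (median 111) in the EY mice. The Y mice were again above all N and E mice and below all EY mice, and N mouse 2 and E mouse 4 stood apart from the rest of their groups. Psat1 rose in EY against N by a log2 fold change of 2.04 (SE 0.12, adjusted p = 1.51e-09) and in Y against N by 1.49 (SE 0.15, adjusted p = 5.92e-06). It was the only member called in Y against E (1.26, adjusted p = 5.87e-05).

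Shmt2 encodes the mitochondrial hydroxymethyltransferase that splits serine into glycine and a folate-bound unit. It stood at 49.3, 43.9, 46.2, 38.2 and 27.5 TPM in the N mice, at 49.9, 55.4, 50.9, 51.0 and 51.5 TPM in the E mice, at 98.7, 77.5 and 89.8 TPM in the Y mice and between 124 and 207 TPM (median 168) in the EY mice. In the deposited TPM the 4 groups did not overlap in Shmt2, with N lowest, then E, Y and EY. The highest N mouse (49.3) and the lowest E mouse (49.9) were close, and their order after scaling was not looked at. Shmt2 rose in EY against N by a log2 fold change of 2.04 (SE 0.14, adjusted p = 5.25e-09) and in Y against N by 1.13 (SE 0.17, adjusted p = 0.000194). In E against N it was 0.36 (SE 0.14, adjusted p = 0.223), and in EY against Y it was 0.91 (SE 0.16, adjusted p = 0.00213), under the limit on the fold change. Ndufa4l2 lies over Shmt2 on the opposite strand in GENCODE M21, and as the strand used in counting was not stated, reads of both cannot be told apart.

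Mthfd2 encodes the mitochondrial dehydrogenase and cyclohydrolase of the next step, an enzyme that is low in most resting adult tissues. Its values were 4.65, 2.58, 2.09, 3.80 and 2.83 TPM in the N mice, 5.39, 8.30, 8.06, 8.30 and 10.2 TPM in the E mice, 9.34, 8.42 and 10.7 TPM in the Y mice and between 17.5 and 37.3 TPM (median 20.8) in the EY mice. All E and Y mice were above all N mice and overlapped with each other, and all EY mice were higher still. Mthfd2 was the only member called in each of EY, Y and E against N. Its log2 fold changes were 2.88 in EY (SE 0.22, adjusted p = 2.03e-08), 1.59 in Y (SE 0.27, adjusted p = 0.000581) and 1.34 in E (SE 0.23, adjusted p = 0.0020). These 3 comparisons share the N mice. The call in Y was lost with only the Y and N mice in the model (1.59, adjusted p = 0.0110). Gm43890 lies over Mthfd2 on the same strand in GENCODE M21, with a mean of 2.93 TPM over all mice. Reads of both may be shared, which also touches the ratio of Mthfd2 to Shmt2 below.

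Per exon length, Psat1 was the most abundant member in N (mean 120.4 TPM per exon length) and in EY mice (487), followed by Phgdh (107 and 322) and Asns (57.1 and 163). Mthfd2 was the least abundant in N (8.42) and reached 61.8 in EY mice, above Slc7a5 (53.9), Slc1a5 (40.1), Slc7a1 (38.3) and Slc7a11 (21.8). Slc3a2 went from 42.4 in N to 83.4 in EY mice, and Shmt2 from 31.9 to 127. In the deposited units, by contrast, Shmt2 has the highest mean of the members in N mice.

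**Figure D2:**
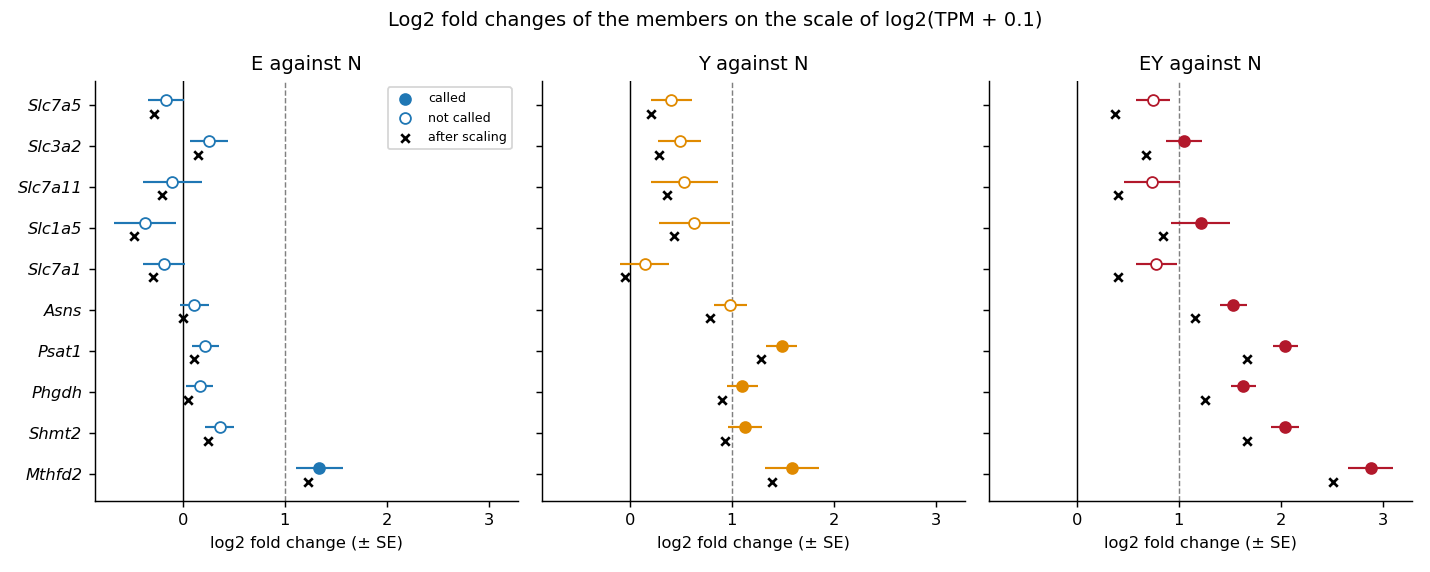
Log2 fold changes of the 10 members in E, Y and EY against N epithelia on the scale of log2(TPM + 0.1), with the SE as a bar; filled circles were called, open circles were not, and crosses give the value after median-of-ratios scaling. The dashed line marks the limit of 1 on the fold change, which in EY is passed by 7 members before and 5 after scaling.

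In Y against N epithelia, which shows the altered YAP1 alone, 4 of the 10 members were called higher (3.47% of all genes), namely Psat1, Phgdh, Shmt2 and Mthfd2. In 5 of the 10, these 4 and Asns, every Y mouse was above every N mouse (15.5% of all genes). The transporter genes had log2 fold changes from 0.15 for Slc7a1 to 0.63 for Slc1a5 and were not called. The median over the members was 0.81, beside 0.13 for all genes. After scaling it was 0.61, beside -0.03 for all genes, and 2 members were called (2.3% of all genes), Mthfd2 (1.40) and Psat1 (1.29). Slc7a1 was then at -0.05. With the 3 N mice of the control genotype 2 were called as well, Mthfd2 and Psat1. With only the Y and N mice in the model the 2 were Phgdh and Psat1. Without N mouse 5 Shmt2 was just under the limit (0.996).

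In E against N epithelia, which shows the oncogenes alone, 1 of the 10 members, Mthfd2, was called higher (1.16% of all genes). Shmt2 and Mthfd2 were the 2 members in which every E mouse was above every N mouse (3.93% of all genes). The log2 fold changes of the other 9 ran from -0.37 for Slc1a5 to 0.36 for Shmt2, and the median over the members was 0.14, beside 0.07 for all genes. After scaling, Mthfd2 was at 1.23 (adjusted p = 0.0086) and was again the only member called (0.985% of all genes), and the median of all genes was -0.02. With the 3 N mice of the control genotype, Mthfd2 was at 1.40 with an adjusted p of 0.0136, and with only the E and N mice in the model at 1.34 with an adjusted p of 0.0219, so that the call was lost.

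When E6-E7 was added to active YAP1, in EY against Y epithelia, 1 of the 10 members was called higher, Mthfd2 (1.29, SE 0.26, adjusted p = 0.00502; 1.07% of all genes). In 6 of the 10, Slc1a5, Slc7a1, Psat1, Phgdh, Shmt2 and Mthfd2, every EY mouse was above every Y mouse (11.1% of all genes). The log2 fold changes of the other 9 ran from 0.20 for Slc7a11 to 0.91 for Shmt2. The call of Mthfd2 was lost without Y mouse 1 (1.28, adjusted p = 0.0285), Y mouse 2 (1.21, 0.0293), Y mouse 3 (1.38, 0.0151) or EY mouse 1 (1.23, 0.0112), where the fold changes stayed near that of all mice and the adjusted p moved past 0.01. It was also lost after scaling (1.11, adjusted p = 0.0200), where 0 of the 10 members were called higher by limma, beside 0.541% of all genes.

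When active YAP1 was added to E6-E7, in EY against E epithelia, 6 of the 10 members were called higher (7.82% of all genes), namely Slc1a5 and the 5 enzymes. In every member but Slc7a11, every EY mouse was above every E mouse (9 of 10; 17.6% of all genes). The enzymes had log2 fold changes from 1.42 for Asns to 1.82 for Psat1, and Mthfd2 was at 1.54 (SE 0.22, adjusted p = 3.03e-05). After scaling the count was again 6, beside 4.4% of all genes. Slc7a1, at 0.96, was just under the limit and passed it without E mouse 1, E mouse 3, EY mouse 3 or EY mouse 5 (1.02, 1.02, 1.03 and 1.02).

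In Y against E epithelia, 1 of the 10 members was called, Psat1 (1.67% of all genes were called higher), and in 6 of the 10 every Y mouse was above every E mouse (11.1% of all genes). Phgdh was at 0.94 (adjusted p = 0.00072), Asns at 0.87 (adjusted p = 0.00252) and Shmt2 at 0.77 (adjusted p = 0.00688), each under the limit on the fold change. Mthfd2 was at 0.25 (adjusted p = 0.631). After scaling, Psat1 alone was called again (1.18; 1.34% of all genes). Without Y mouse 2, Phgdh passed the limit (1.00, adjusted p = 0.00301) and 2 members were called.

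Whether the transgenes together differed from the sum of each alone was tested as EY - E - Y + N on the log2 scale. By limma, 0 of the 10 members were called in this interaction (0.176% of all genes in either direction), and 0 by voom on the recovered reads. By limma, p before adjustment was 0.0186 for Slc7a1 (0.81, SE 0.31) and 0.0211 for Shmt2 (0.55, SE 0.22), with adjusted p of 0.254 and 0.268. The largest interaction was that of Slc1a5 (0.95, SE 0.45, adjusted p = 0.371). Mthfd2 was at -0.05 (SE 0.35), and the median over the members was 0.40, beside 0.08 for all genes. A missed threshold does not show that the effects add up: the SE of the other members ran up to 0.45.

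The marker sums of other cells differed between the groups. With the mean of the leukocyte markers as a covariate, an alternative chosen after seeing the data, the 5 enzymes were called in EY against N, Slc3a2 was at 0.75 (adjusted p = 0.0285) and Slc1a5 at 1.23 (adjusted p = 0.0419). In the same fit, Psat1, Phgdh, Shmt2 and Mthfd2 were called in Y against N. With the muscle markers as a covariate, the 5 enzymes and Slc3a2 were called in EY against N. For the covariate fits no share of all genes is given here, so these calls cannot be set beside one. Proliferation genes were higher as well: the 8 genes summed to between 193 and 237 TPM per exon length in the N mice, 433 and 754 in the E mice, 465 and 616 in the Y mice and 1133 and 1274 in the EY mice, and their part in the results was not tested.

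Ratios of a pair of members within a mouse do not depend on how the mouse was scaled. Each was tested against the N mice by exact permutation of the group labels, two-sided, and the 12 p-values were adjusted together. The log2 ratio of Mthfd2 to Shmt2 was -3.40, -4.09, -4.47, -3.33 and -3.28 in the N mice, -3.21, -2.74, -2.66, -2.62 and -2.34 in the E mice, -3.40, -3.20 and -3.08 in the Y mice and between -3.26 and -2.18 in the EY mice. All E and EY mice were above all N mice, and the Y mice overlapped with them. The ratio was higher by 1.00 in E (exact p = 0.00794, the smallest that 5 against 5 mice allow; adjusted p = 0.0476) and by 0.88 in EY mice (exact p = 0.00433, adjusted p = 0.0476). In Y mice the difference was 0.49 (exact p = 0.161).

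The log2 ratio of Psat1 to Phgdh was 0.09, 0.11, 0.10, 0.46 and 0.68 in the N mice and between 0.62 and 1.01 in the EY mice. N mice 4 and 5 stood above the other N mice, and N mouse 5 reached into the EY range. The ratio was higher by 0.41 in EY (exact p = 0.0130, adjusted p = 0.0476), by 0.38 in Y (exact p = 0.0714) and by 0.06 in E mice (exact p = 0.746). The log2 ratio of Slc7a5 to Slc3a2 was -1.18, -1.03, -0.60, -0.93 and -1.05 in the N mice and -1.68, -1.38, -1.28, -1.49 and -1.10 in the E mice, with only E mouse 5 inside the N range. Its difference was -0.43 in E (exact p = 0.0159, adjusted p = 0.0476) and -0.30 in EY mice (exact p = 0.110). For Slc7a11 to Slc3a2 no ratio passed, with differences from -0.38 to 0.11. So 4 of 12 ratio tests had an adjusted p below 0.05, all at 0.0476, just under the threshold. The count was 0 without N mouse 1, 2, 3 or 4 and with the 3 N mice of the control genotype, and it was 2 without N mouse 5, without E mouse 1, 2, 3 or 4 and without any of the EY mice 1 to 6. The differences moved less than the count. Without 1 N mouse at a time, Mthfd2 to Shmt2 differed by 0.81 to 1.11 in E and by 0.69 to 0.98 in EY mice. With the 3 N mice of the control genotype the differences were 1.27 in E and 1.15 in EY mice, and that of Psat1 to Phgdh in EY mice was 0.60. As the 12 tests are adjusted together, the ratio of Slc7a5 to Slc3a2 in E mice lost its place without an EY mouse although its value stayed at -0.43.

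**Figure D3:**
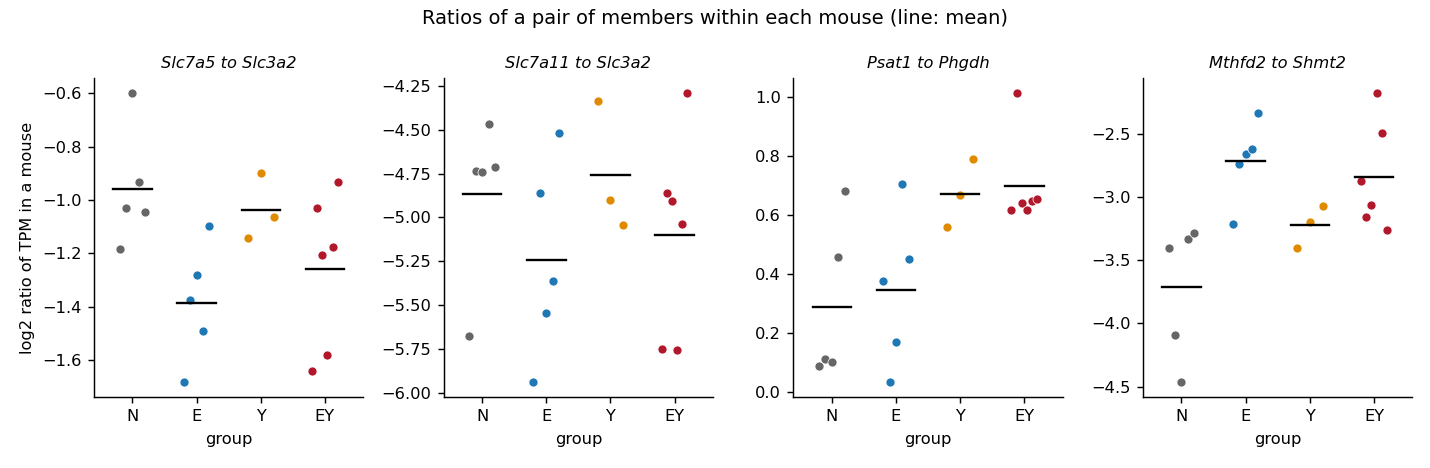
Log2 ratio of the TPM of a pair of members in each of 19 mice, by group; points are mice and the line is the group mean, and each panel has its own axis. For Mthfd2 to Shmt2, the lowest E mouse is at -3.21 and the highest N mouse at -3.28.

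The other genes of these pathways were followed in lists. Of 20 other genes of serine, glycine and folate metabolism, 10 were called higher and 0 lower in EY against N, with a median log2 fold change of 0.93 (12.6% of all genes were called higher and 5.71% lower). After scaling 5 were called higher and 0 lower (6.77% and 8.67% of all genes), with a median of 0.59. Psph, the phosphatase that completes serine synthesis after Psat1, rose by 1.40 (SE 0.10, adjusted p = 1.46e-08). Large increases were in Mthfd1l, the mitochondrial formate producer (2.55), Tyms, the thymidylate synthase (2.19), and Gcsh, a subunit of the glycine cleavage system (1.61). In Y against N, 4 of the 20 were called (3.47% of all genes were called higher), Psph, Mthfd1l, Tyms and Gcsh. After scaling 1 was called higher and 1 lower there, where 2.3% of all genes were called higher. In E against N, 2 of the 20 were called before and after scaling (1.16% and 0.985% of all genes were called higher), with Tyms (1.47) among them.

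Of 30 other amino acid transporter genes tested (33 listed), 5 were called higher and 1 lower in EY against N, with a median of 0.06, under that of all genes. Their share is near that of all genes (12.6% higher, 5.71% lower). After scaling 3 were higher and 2 lower (6.77% and 8.67% of all genes), with a median of -0.27. Slc1a1, a carrier of glutamate and aspartate, was listed at 0 in every N mouse and had means of 2.03 TPM in Y (SD 0.986) and 1.99 TPM in EY mice (SD 1.33). Slc38a1 and Slc38a2, which take up glutamine and alanine with sodium, rose by 1.94 and 1.67, and Slc6a14, a broad carrier of neutral and cationic amino acids, by 1.37. Slc38a2 had a mean of 272 TPM per exon length in EY mice, above all of the 5 transporter members.

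Of 18 other genes of amino acid synthesis, 7 were higher and 1 lower, with a median of 0.80, where 12.6% of all genes were called higher and 5.71% lower. After scaling 3 were higher and 2 lower (6.77% and 8.67% of all genes), with a median of 0.42. The list was led by Cth, which makes cysteine (2.29), Gls2, which splits glutamine (2.28), and Ass1, of arginine synthesis (1.74). Of 20 cytosolic tRNA synthetase genes, 5 were higher (12.6% of all genes) and 0 lower, with a median of 0.81, led by Nars (1.54), Aars (1.25) and Iars (1.13). The list spread little, from 0.23 to 1.54. After scaling, 1 tRNA synthetase of 20 was called, where 6.77% of all genes were called higher, and the median was 0.43.

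Of 22 genes of ATF4 itself and the stress response around it, 6 were higher and 0 lower, with a median of 0.63. Of all genes, 12.6% were called higher and 5.71% lower. After scaling 3 of the 22 were higher and 1 lower (6.77% and 8.67% of all genes), with a median of 0.34. The list was mixed, with values from -1.13 to 4.31 before scaling. Mean TPM of Atf3 were 39.5 in N (SD 19.1) and 17.3 in EY mice (SD 5.18). Those of Chac1 were 108 in N (SD 57.0) and 48.2 in EY mice (SD 12.7), and neither gene was called before scaling. Atf4 had a log2 fold change of 0.89 (SE 0.11, adjusted p = 5.77e-06), with every EY mouse above every N mouse but under the limit on the fold change; ATF4 is controlled mainly in translation, which RNAseq does not measure. Eif4ebp1, an inhibitor of translation that mTORC1 holds in check, rose by 2.63 (SE 0.25). Eif2ak2, a kinase of the stress response, rose by 1.46. Gdf15 and Stc2, secreted stress factors, were called with fitted values of 4.31 and 4.12, which depend on the pseudocount, as their means in N mice were 0.374 and 0.019 TPM. Of 19 genes of the mTORC1 machinery tested, 1 was called, its inhibitor Deptor (2.05), where 12.6% of all genes were called higher; the median was 0.41, and 0.05 after scaling.

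Of 15 genes of glutathione and its regulator NRF2 tested, 2 were called higher, Gpx4, which clears lipid peroxides (1.42), and Gsr, the glutathione reductase (1.22), a share near the 12.6% of all genes. The median was 0.12, and after scaling 1 was higher and 1 lower (6.77% and 8.67% of all genes), with a median of -0.25. Gclc and Gclm, the subunits of the enzyme that uses the cysteine supplied through Slc7a11, were at 0.39 (adjusted p = 0.213) and 0.03 (adjusted p = 0.933). All 8 proliferation genes were called higher, with a median of 2.90, led by Ccnb1 (3.52) and Cdk1 (3.50). Of the 6 YAP target genes 5 were higher, led by Axl (2.26) and Amotl2 (2.06). Of the marker lists, 3 of 10 epithelial genes were higher and 3 lower, 3 of 10 leukocyte genes higher and 1 lower, 1 of 10 muscle genes higher, 1 of 7 fibroblast genes lower and 0 of 4 endothelial genes called by limma. The shares of all genes were 12.6% higher and 5.71% lower.

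**Figure D4:**
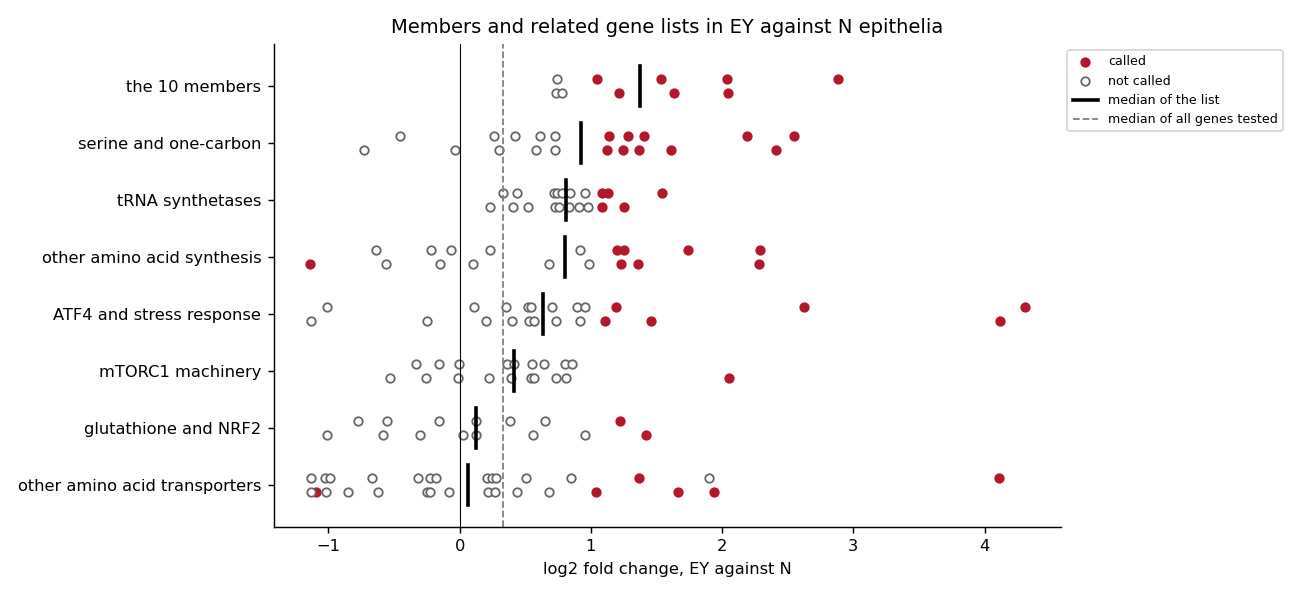
Log2 fold change of each gene tested in EY against N epithelia, for the members and 7 related lists; filled points were called, open points were not, the black bar is the median of the list and the dashed line the median of all genes tested. The members have a median of 1.37, and the other amino acid transporters one of 0.06.

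To name genes of the same pattern, the members were standardised over the 19 mice and averaged. Outside the members, the 5 genes closest to that mean by Pearson r were Lrrc59 (0.988), Polr2b (0.981), Mars1 (0.979), Oxsr1 (0.976) and Usp39 (0.976). Of the members themselves, Shmt2 (0.978) and Phgdh (0.971) were nearest to the mean and Slc7a11 (0.772) farthest from it. Mean TPM of Lrrc59, a protein of the endoplasmic reticulum, were 82.6 in EY, 57.5 in Y, 25.1 in E and 23.7 in N mice. For single members, the nearest genes were Cluh for Slc7a5 (0.956), Ddost for Slc3a2 (0.969), Glt1d1 for Slc7a11 (0.915), Larp4 for Slc1a5 (0.944) and Fat1 for Slc7a1 (0.937). For the enzymes they were Mthfd1l for Asns (0.982), Prmt1 for Psat1 (0.983), Gm16066 for Phgdh (0.986), Kpnb1 for Shmt2 (0.982) and Tuba1b for Mthfd2 (0.979). These r over 19 mice include the differences between the groups and the common sum of TPM in a mouse, and the part of each was not tested.

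Within the groups, with the group means taken out, r between 2 members ran from -0.215 (Slc7a11 and Mthfd2) to 0.796 over 19 mice. Slc3a2 went with Slc7a1 (0.796) and with Shmt2 (0.768), and Slc7a5 with Slc7a1 (0.753), while Asns went with Mthfd2 (0.742) and Psat1 (0.656). Shmt2 also went with Slc7a5 (0.698), Phgdh (0.671) and Slc7a1 (0.661), and Slc7a5 with Slc3a2 (0.675). Asns and Slc7a5 had an r of 1.2e-05, and Asns and Slc7a1 one of -0.061. These r are given as a description, and all values of a mouse share its scaling.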

How the data were processed

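RNAseq values of tongue epithelia of 19 mice were used. Per the study's methods, the authors aligned reads to GRCm39 with STAR 2.7.9, sorted them with SAMtools 1.7, counted them with HTSeq 0.13.5 and used DESeq2 1.34.0. The deposited unit is TPM, and how the authors made these TPM from counts is not stated; by the check described above they are divided by the gene span. Gene spans and exon lengths came from GENCODE M21, an annotation of GRCm38 and not of GRCm39, in which 96.5% of the genes had 1 entry of their symbol.

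Genes that reached 0.1 TPM in 3 or more mice entered limma (version 3.58.1, under R 4.3.3). The log2(TPM + 0.1) were fitted by lmFit to 4 group means without a covariate, and moderated by eBayes with its trend option; tests were two-sided and each replicate was 1 mouse. Fold changes on this scale understate those of low genes. P-values were adjusted over all 22745 genes. Values were whole multiples of a step, within 0.01, in 24680 of 24680 genes above 0. The fits were tested on simulated data. Tables were computed with pandas 2.3.3 and numpy 2.4.6, and plots drawn with matplotlib 3.10.9, under Python 3.11.15.

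The members and lists were chosen with earlier results of these data known. All members were named, and of each list up to 4 genes with the largest absolute log2 fold change among those called in EY against N. Also named were the most abundant marker, genes named for their role, and the genes nearest to the members over the mice. Krt5, Krt15, Trp63, Ly6g, Cd3e, Cd74, Atf3, Chac1, Slc38a2 as a level and the genes that overlap members were named after their values were seen. Some genes that this rule would name are not reported here. The alternatives were pseudocounts of 1 and 0.01 TPM, a filter at 1 TPM or none, median-of-ratios scaling, quantile normalization, the 3 N mice of the control genotype, a fit of only the groups compared, a block for the mouse number, eBayes in its robust form, a threshold of 0.05 on the adjusted p, calls without a fold limit, a muscle covariate, voom on the recovered reads and leaving out each mouse in turn. A leukocyte covariate and TPM per exon length were added after seeing the data. No batch was given in the sources used here. Pseudogenes or genes of either strand lie over Slc7a11, Slc7a5, Psat1 and Mthfd2 as well, and their reads may be shared.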

Additional observations from a re-analysis of the deposited data

Results flagged for a closer look

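In 3 of 30 groups of a member looked at (N, E and EY), 1 mouse stood apart from the others of its group by more than Dixon's limit. Psat1 in N mouse 2 was at 21.9 TPM, below the other N mice. Psat1 in E mouse 4 was at 41.2 TPM and Shmt2 in E mouse 2 at 55.4 TPM, above the other E mice. Chance sets apart about 1 in 20 groups. Groups of 3 mice were not looked at.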

How the results depend on the processing

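The direction and the side of the threshold were kept in 2572 comparisons of a value with its alternative; 77 lost the call, 21 gained it and 22 turned sign, each turned value being one that was not called. The cause was not tested. Except after median-of-ratios scaling, the counts of members in the alternatives are given without a share of all genes called higher. They cannot be set beside one. In Y against N 2 members were called, in place of 4, after median-of-ratios scaling, after quantile normalization, with the 3 N mice of the control genotype and with only the groups compared. In E against N 0 were called by limma with the 3 N mice and with only the groups compared. In EY against Y 0 were called by limma after either scaling, with only the groups compared and with the muscle covariate, and 2 without a limit on the fold change, where Y against E had 4. Leaving out each mouse in turn gave 6 to 7 members in EY against N, 3 to 5 in Y against N, 1 to 1 in E against N, 0 to 1 in EY against Y, 6 to 7 in EY against E, 1 to 2 in Y against E, 0 to 0 in the interaction and 0 to 4 ratio tests; 0 ratio tests passed with the 3 N mice, though Mthfd2 to Shmt2 differed by 1.27 in E and 1.15 in EY mice.

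Values that turned sign were Slc7a1 in Y against N (-0.0488 after scaling, -0.0575 after quantile normalization, -0.154 with the 3 N mice, and -0.00733 to 0.306 with a mouse left out, lowest without N mouse 5), Slc7a11 in E against N (-0.197 to 0.00734 with a mouse left out, highest without E mouse 1) and in EY against Y (-0.0310 after quantile normalization, -0.0720 to 0.522 with a mouse left out, lowest without Y mouse 2), and Asns in E against N (-0.000543 after scaling, -0.0314 after quantile normalization, 0.0434 to 0.166 with a mouse left out). The interaction of Mthfd2 turned to 0.0926 with a pseudocount of 1 TPM, 0.0669 with the muscle covariate, and 0.0135, 0.0865, 0.0452, 0.0409, 0.00173, 0.00257 and 0.0339 without N mouse 2 or 3, E mouse 5, Y mouse 3 or EY mouse 2, 3 or 6, the lowest with a mouse left out being -0.193. Ratio differences that turned were Slc7a11 to Slc3a2 in Y (-0.0942 without N mouse 1, -0.104 without Y mouse 1, at most 0.249), Slc7a5 to Slc3a2 in Y (0.0122 without N mouse 3, lowest -0.146) and Psat1 to Phgdh in E (-0.0316 without E mouse 4, at most 0.157).

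With the mouse number as a replicate block, 7 members were called in EY against N and 5 in Y against N, with Asns added. In EY against Y 1 was called, Shmt2 (1.02) in place of Mthfd2. No share of all genes is given for this fit either. Of the ratio tests, 0 passed with the block (smallest adjusted p 0.188). No ratio test could pass there, as 5 pairs allow an exact p of 0.0625 at best, and Mthfd2 to Shmt2 differed by 1.00 in E and 0.96 in EY mice. The values did not show whether the numbers pair the mice. Deviations of 24 same-numbered pairs correlated at -0.043 to 0.076 (median 0.012), none above 0.1. Those of the 109 other pairs had a median of -0.0075, and 6 of 19 mice correlated best with their own number.

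Over all genes, calls in EY against N went from 4157 to 7248 without a limit on the fold change, and in EY against E from 2914 to 5746. In Y against N they went from 1042 to 656 with the 3 N mice, 555 with only the groups compared, 1599 at an adjusted p below 0.05, 1935 without the limit and 639 without Y mouse 3. In E against N they went from 274 to 145 with only the groups compared and 414 at 0.05. In EY against Y they went from 454 to 198 with only the groups compared, 865 at 0.05 and 803 without the limit, and to 200, 255 and 262 without Y mouse 1, 2 or 3. In Y against E they went from 563 to 187, 1016 and 986 in the same order of settings, and to 316 and 266 without Y mouse 2 or 3. For the interaction they went from 40 to 148 at 0.05, 118 with voom and 73 without EY mouse 3. TPM per exon length gave the same counts of members. The fewest reads of a member in a mouse were 66, for Mthfd2 in N mouse 3, and Slc1a5 had 85 in E mouse 1.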
